A study of Mus musculus with 2 samples.

Results

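The lymph node cancer cells were 1078 keratin-positive cells of a single-cell RNA sequencing library of metastatic lymph nodes, out of 11617 cells in that library and 24044 in the whole series. They were selected on measured values. A cell had over 200 detected genes and at most 5% mitochondrial UMIs (unique molecular identifiers, each counting 1 captured RNA molecule). It held at least 10 UMIs of Krt8 and Krt18, the keratin pair of simple epithelia, making up at least 500 of every 1000000 of its UMIs. It also held at most 1 UMI of Ptprc, at most 2 of Cd79a and Cd3e, under 5 of Glycam1, Chst4 and Fut7 and at most 1 of Cdh5 and Pecam1, which mark leukocytes, lymphocytes, high endothelial cells and endothelium. These 10 genes are not results. The animals were female C57BL/6J mice bearing EO771-HEVM3 tumours, a derivative of the mouse mammary cancer line EO771 selected in vivo for spread through the high endothelial venules of lymph nodes and sorted by a photoconverted Dendra2H2B label. Primary tumours and paired lymph nodes were pooled from 6 mice into 1 library each. The tumours were digested for 2 h at 37 °C with collagenase I, collagenase III and hyaluronidase, and the nodes for 1 h at 37 °C with collagenase P, dispase II and DNase. The same gate gave 6819 cells in the primary tumour library, which served as the comparison. Tissue, digestion, library and depth cannot be told apart in this design, and with 1 library per tissue no difference could be tested.

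High endothelial venules are the vessels through which lymphocytes enter a lymph node, and tumour cells can leave the node through them. A cancer cell in a node is surrounded by lymphocytes, and its recognition depends on antigen presentation, which interferons raise. Id proteins are inhibitors of differentiation that bone morphogenetic protein signalling induces, and trefoil factors such as Tff1 and Tff2 are small secreted proteins of mucosal epithelia.

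The 1078 cells were 9.57% of the 11269 node cells that met the gene and mitochondrial limits (exact 95% Clopper-Pearson interval 9.03 to 10.1%, counting error only). In the primary tumour the gate kept 68.3% of 9989 such cells. In the node, 1427 cells met the keratin limits and 349 of them (24.5%) failed another limit, among them 211 by Cd79a and Cd3e and 195 by Ptprc. The corresponding loss in the tumour was 2.88%. The keratin limits did not cut through a dense part of the node data: no member lay between 500 and 600 keratin UMIs per 1000000 (CPM), the lowest member had 15 keratin UMIs, and 3 cells with 7 to 9 such UMIs fell just outside. Members had a median of 45388 UMIs (5th to 95th percentile 21475 to 95669) and 6052 genes. The tumour cells had a median of 16786 UMIs and 3963 genes. In all, the members held 53996223 UMIs and the tumour cells 142487649. Of the 47 barcodes found in both libraries, 5 were node members.

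The label's markers beyond the gate are given as a description, since Tff2 and Id1 were named from earlier results of these data. Krt19, another keratin of simple epithelia, had a UMI in 99.7% of members, Tff2 in 97.4% and Id1 in 98.5%. After thinning each cell to 5000 UMIs these shares were 97.0%, 90.8% and 94.2%, with 2 shallower cells left out. Lymphocytes of the same node, defined by at least 3 UMIs of Cd79a and Cd3e and failing the keratin limits (5186 cells, median 1998 UMIs), had 4.23%, 5.26% and 9.57% at that depth, with 4569 cells left out, and 4.38%, 5.09% and 6.79% unthinned. Decorin (Dcn), usually a fibroblast product, was at 1164 CPM in the members and 1060 in the tumour cells, while Col1a1 was at 0.0556 and 12.5.

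At least 2 members went against the label. Almost all RNA of Dcpp1, Dcpp2 and Dcpp3, secreted proteins of salivary glands with near-identical sequences, came from 2 cells. The first had 68454 Dcpp UMIs of 82558 in all and no UMI of Tff2, Id1, Dcn or Krt19. The second had 47698 Dcpp UMIs of 94344, together with 38 of Tff2 and 48 of Id1. A further 255 members had 1 to 12 such UMIs, no tumour member had any, and 5 node cells outside the gate also had 100 or more. Dcpp3 was at 1384 CPM in the node lymphocytes, a sum over cells in which the share of single cells is not given. In cluster 1 of the members, described below, it was at 2.31 CPM. The class comparisons and cluster 2 are given with and without the 2 Dcpp-rich cells. Without them 617 genes were at least 2-fold higher and 1183 lower in the comparison of tissues below.

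RNA of other cell types was summed by list. The B cell list summed to 12.5 CPM in members, 0.723 in tumour cells and 5085 in node lymphocytes, and the T cell list to 54.8, 23.1 and 885. These lists hold the gate genes Cd79a and Cd3e, by which the lymphocytes were also picked. Part of these contrasts was thus set by the selection. The plasma cell list was at 86.6 CPM in members and 53.1 in tumour cells, and the fibroblast list, which holds Dcn, at 1166 and 1082. In cluster 5, described below, Ighm was at 40.1 CPM, against 3.33 in the other members. Igkc, the immunoglobulin kappa constant region, was at 55.1 CPM in members, 0.140 in the tumour and 21717 in lymphocytes, and 38.6% of the members' UMIs came from 1 cell. The macrophage list was at 15 CPM in members and 38 in tumour cells, with C1qa at 0.0370 and 2.29. The part of such RNA in the results below was not tested, and the lymphocyte level of Cd74 is given beside it.

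Summed over cells, 11214 genes had at least 100 UMIs in either class. Of these, 621 (5.54%) were at least 2-fold higher in the node than in the tumour and 1188 (10.6%) at least 2-fold lower, with a median log2 ratio of -0.17. With ratios taken relative to that median, 848 were higher and 878 lower. A ratio is log2 of the node CPM over the tumour CPM with 0.5 added to each count, and intervals are exact and cover counting error only. The gate genes Krt8, Krt18, Ptprc and Cd79a are among the genes tested and are not described.

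**Figure D1:**
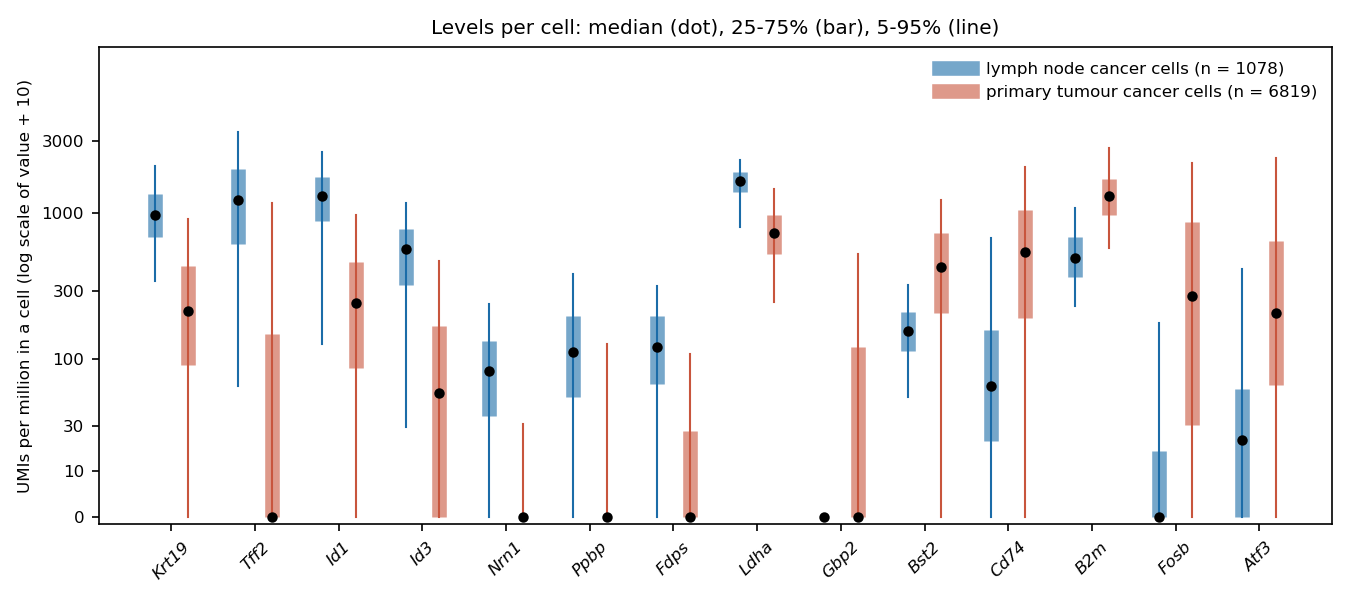
Levels of 14 genes in single cells, as CPM on a log scale of the value plus 10, in 1078 lymph node (blue) and 6819 primary tumour (red) cancer cells. Dots are medians, bars the 25th to 75th percentile and lines the 5th to 95th percentile. The bars overlap for Bst2, meet at 0 for Gbp2 and do not overlap for the other genes. Gbp2 has its 95th percentile at 0 in the node.

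Id1 was at 1353 CPM in the node and 364 in the tumour (log2 ratio 1.90, interval 1.88 to 1.91). In single node cells its 5th percentile, median and 95th percentile were 128, 1291 and 2555 CPM, and in the tumour 0, 247 and 967. The ranges from the 25th to the 75th percentile, 879 to 1728 and 85.6 to 467 CPM, did not overlap. Id2 was at 338 against 104 CPM (1.71) and Id3 at 599 against 136 (2.14). Smad6, an inhibitory Smad, was at 16.8 against 6.37 (1.40, and 0.89 among cells with 10000 to 30000 UMIs). These 4 were the genes at least 2-fold higher among 14 tested of the list of bone morphogenetic protein, transforming growth factor and Id genes, and Acvr1 and Tgfb2 were at least 2-fold lower. The receptors Bmpr1a, Bmpr2, Tgfbr1 and Tgfbr2 lay between -0.75 and 0.06, and Bmp4 and Bmp7 at 0.09 and 0.11. The 2-fold difference was thus seen in the Id genes and, over cells of all depths, in Smad6, and not in these receptors and ligands.

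Tff2 was at 1509 CPM in the node and 199 in the tumour (2.92, interval 2.91 to 2.94, and 2.23 among cells with 10000 to 30000 UMIs). Its median per cell was 1226 CPM in the node and 0 in the tumour, but the highest tumour cell, at 16299 CPM, exceeded the highest node cell, at 7997. Tff1 was at 57.8 against 112 CPM in sum (-0.96), but its median per cell was 22.1 CPM in the node and 0 in the tumour. A Tff1 UMI was in 61.5% of node and 17.6% of tumour cells, and in 16.4% and 10.9% after thinning to 5000 UMIs. The 95th percentile was 185 CPM in the node and 444 in the tumour, and the highest tumour cell had 31429. Krt19 was at 1056 against 266 CPM (1.99), while Krt7, Krt14 and Krt20 differed by less than 2-fold (0.55, -0.09 and 0.07). Cldn4, a tight junction claudin, was at 1.48 against 50.4 CPM (-5.08, and -3.02 among cells with 10000 to 30000 UMIs), whereas Cldn3 was at 262 against 185. Of the list of hair and cornified envelope genes, 4 of 10 were at least 2-fold higher and 5 lower, and its median of -0.89 turned to 0.14 among cells with 10000 to 30000 UMIs and at least 100 CPM of Id1 in the node. The higher ones included the hair keratin Krt33b (30.4 against 0.730 CPM), S100a3 (16.4 against 0.835) and Padi3 (12.2 against 0.554). Among the lower ones was Slurp1, at 1.46 against 37.0.

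Other genes with the largest ratios at 50 CPM or more were Nrn1, which encodes the neuronal growth factor neuritin (95.8 against 4.76 CPM, 4.33), and Ppbp, a platelet chemokine (144 against 20.3, 2.83). Akap12 (2.78), Fam25c (2.54) and Rgs10 (2.53) followed. Among cells with 10000 to 30000 UMIs Nrn1 was at 3.55, Akap12 at 2.15 and Fam25c at 1.93. Nrn1 had a UMI in 34.9% of node and 2.42% of tumour cells after thinning to 5000 UMIs, and in 3.41% of lymphocytes, and unthinned in 87.3%, 5.69% and 0.945%. The same rule named Dcpp1, Dcpp2, Dcpp3 and Bpifa2, all at 0 UMIs in the tumour, and Igkc. Without the 2 Dcpp-rich cells the fitted log2 ratio of Dcpp3 moved from 18.32 to 9.62.

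Genes of interferon response were lower as a group. Of 14 interferon-induced GTPases, which act against intracellular pathogens, 11 were at least 2-fold lower and none higher, with a median log2 ratio of -3.53. Gbp2 had 49 UMIs in all 1078 node cells (0.907 CPM, interval 0.671 to 1.20) and 18143 in the tumour (127 CPM, interval 126 to 129), a log2 ratio of -7.12. Iigp1 was at 1.15 against 103 CPM (-6.47), Irgm2 at 1.15 against 57.1 (-5.62) and Igtp at 4.69 against 125 (-4.73). Among cells with 10000 to 30000 UMIs in both libraries these ratios were smaller, at -5.16 for Gbp2, -3.00 for Iigp1, -3.38 for Irgm2 and -3.46 for Igtp. The exceptions were Gbp3, at 184 against 277 CPM (-0.59), Gbp8 (-0.74) and Gbp9 (-0.97), all under 2-fold. Tgtp1 and Tgtp2 are near-identical copies and their split is uncertain. Of 21 other interferon genes, 20 were at least 2-fold lower (median -2.67), and 14 among cells with 10000 to 30000 UMIs. Irf7 was at 3.28 against 35.9 CPM, Isg15 at 6.76 against 38.8 and Bst2 at 171 against 617 (-1.85). Oasl1 was the exception, at 52.7 against 61.0.

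Of 12 genes of the interferon receptors and the kinases, factors and inhibitors after them, 3 were at least 2-fold lower and none higher (median -0.42), and no receptor or kinase was among the 3. Ifngr1 was at 93.3 against 77.4 CPM, Ifngr2 at 35 against 45.4, Ifnar1 at 16.3 against 22.5, Jak1 at 64.0 against 62.0 and Jak2 at 67.0 against 80.2. Socs1, a feedback inhibitor, was at 3.54 against 17.9 (-2.33). Of 7 genes of RNA editing and sensing, 3 were at least 2-fold lower (median -0.97). Zbp1, a sensor of double-stranded nucleic acid, was at 19.0 against 178 CPM (-3.23, and -2.17 among cells with 10000 to 30000 UMIs), and Adar, which edits such RNA, at 4.15 against 20.6 (-2.31).

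Promoters of these genes are shown because they hold letters to which interferon-activated factors are known to bind. RefSeq windows of 300 bases (GRCm38.p6, 250 before to 50 after the start site) were matched for 9 of 14 GTPase genes and 18 of 23 other interferon genes, using the first window listed for a gene. The letters GAAA, any 2 bases and GAAA again, read on either strand, were in 9 of the 9 GTPase windows, 8 of the 18 other windows and 3.49% of all 27025 windows. TTCNNNGAA was in 6, 5 and 8.47% respectively. In Igtp, Irgm2, Tgtp1 and Tgtp2 the second began 11 bases before the first. Matches of both kinds may overlap. Each run below has 30 bases, 5′ to 3′ on the strand of the gene, with the matches in capitals. They lie at chr3:142620600-142620629 (+ strand) for Gbp2, chr11:48871425-48871454 (- strand) for Irgm1, chr11:58214898-58214927 (+ strand) for Irgm2, chr11:58199507-58199536 (+ strand) for Igtp, chr11:49064268-49064297 (- strand) for Tgtp2 and chr4:156200871-156200900 (- strand) for Isg15, all upstream of the start site. No binding was measured.
Gbp2: ttagTTTCACTTTCactgtcttaagcataa
Irgm1: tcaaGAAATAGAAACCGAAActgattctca
Irgm2: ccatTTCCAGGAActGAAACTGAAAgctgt
Igtp: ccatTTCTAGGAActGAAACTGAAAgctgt
Tgtp2: ccatTTCCAGGAAtcGAAACCGAAAcctac
Isg15: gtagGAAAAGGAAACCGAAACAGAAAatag

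Genes of antigen presentation were lower too, with exceptions. Of 15 genes of the class I pathway, 11 were at least 2-fold lower (median -1.82). The immunoproteasome subunit Psmb9 was at 15.4 against 135 CPM (-3.13) and the peptide transporter Tap1 at 15.9 against 108 (-2.76). B2m, the light chain of class I molecules, was at 525 against 1349 (-1.36, and -0.80 among cells with 10000 to 30000 UMIs). The heavy chain gene H2-D1 was at 613 against 730 (-0.25) and H2-K1 at 15.2 against 12.3, or 11.1 without the 43 cells of cluster 5, which lymphocyte genes lead. All 7 class II genes were at least 2-fold lower (median -2.44), and 2 of them among cells with 10000 to 30000 UMIs. Cd74, the invariant chain, was at 130 against 750 CPM (-2.53, and -0.65 among those cells). Ciita, the master activator of class II genes, was at 0.333 against 7.78 (-4.50). Node lymphocytes had a median of 15536 CPM of Cd74 per cell.

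**Figure D2:**
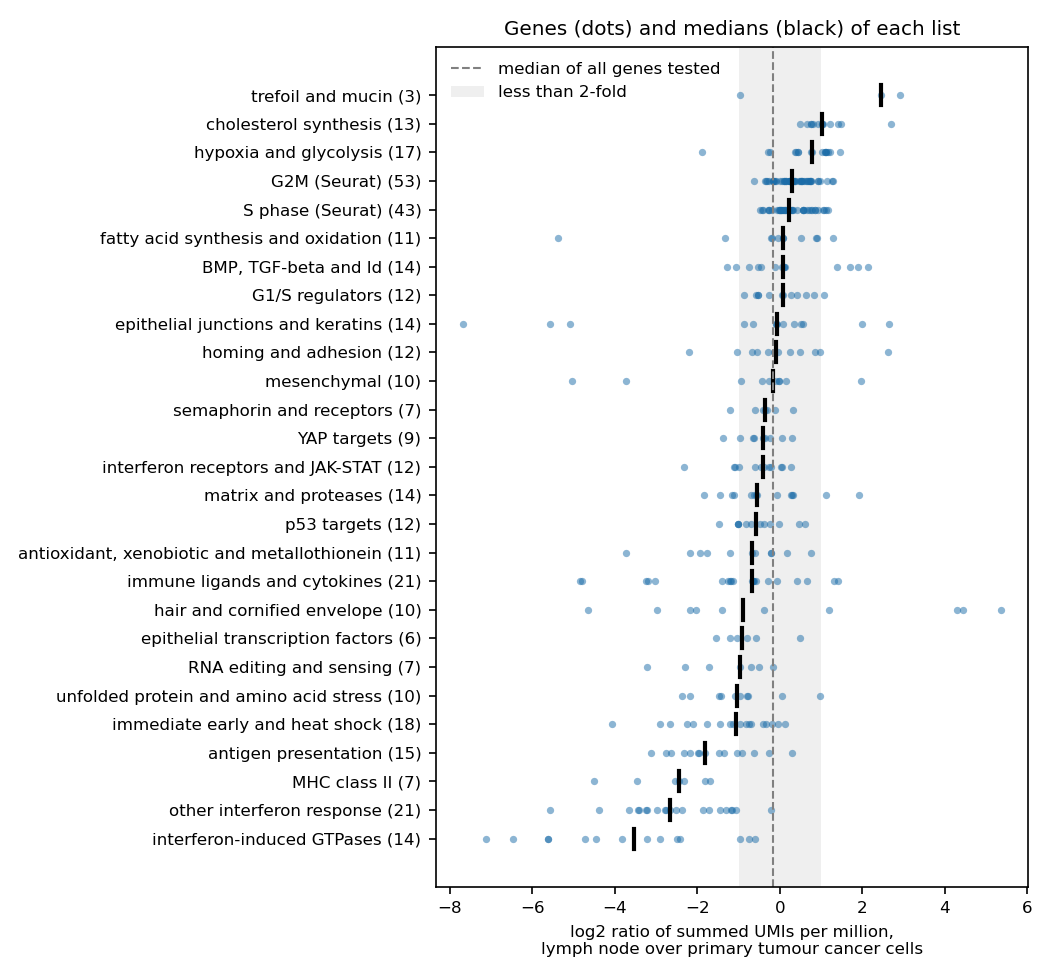
Log2 ratio of each gene (blue dots), lymph node over primary tumour cancer cells, in 27 lists, with the number of genes tested in brackets, the list median as a black bar, the median of all genes (-0.17) as a dashed line and less than 2-fold shaded. The GTPases, other interferon genes, class II and class I antigen presentation lie lowest, and cholesterol synthesis and glycolysis among the highest.

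Early response genes were lower in the node. Of 18 immediate early and heat shock genes, 9 were at least 2-fold lower and none higher (median -1.05). Fosb, a subunit of the AP-1 factor, was at 23.8 against 402 CPM (-4.08), Atf3 at 67.2 against 429 (-2.67), Fos at 54.2 against 259 and Dusp1 at 106 against 455, while Ier2 and Hsp90aa1 were within 2-fold. Among cells with 10000 to 30000 UMIs Fosb was at -1.72 and Atf3 at -0.63. Of 10 genes of the unfolded protein and amino acid response, 5 were lower, among them Ddit3 (21.0 against 94.7 CPM) and Atf4 (87.0 against 242), and Asns was at 180 against 91.3. The tumour and the node were digested for different times with different enzymes, and the part of digestion in these values was not tested.

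Immune ligands and xenobiotic genes were counted next. Of 21 immune ligands and cytokines, 10 were at least 2-fold lower and 2 higher (median -0.68). The monocyte chemokine Ccl2 was at 23.2 against 212 CPM (-3.19), the neutrophil chemokine Cxcl2 at 9.48 against 89.6 (-3.24) and Cd274, which encodes the checkpoint ligand PD-L1, at 1.76 against 14.5 (-3.04). Cxcl5 was at 30.7 against 11.6. The tumour library had more macrophage RNA, and its part in these values was not tested. Of 11 antioxidant, xenobiotic and metallothionein genes, 5 were lower and none higher, among them Cyp1a1 (5.30 against 70.3 CPM, -3.73) and the metallothionein Mt2 (260 against 881, -1.76). Named by the rule for the lowest ratios were also Tppp3 (1.45 against 75.4 CPM, -5.70), the proteoglycan gene Bgn (2.56 against 82.4, -5.01) and Gbp7 (3.28 against 72.4, -4.46). Among cells with 10000 to 30000 UMIs the ratios were -2.06 for Cxcl2, -2.20 for Cyp1a1, -3.36 for Tppp3, -3.42 for Bgn and -3.49 for Gbp7.

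Genes of cholesterol synthesis and glycolysis were higher in the node. Of 13 genes of cholesterol synthesis and its control, 7 were at least 2-fold higher and none lower (median 1.01). Without G2M-high cells in both libraries 2 of the 13 were at least 2-fold higher (median 0.34), and 1 among cells with 10000 to 30000 UMIs. Fdps, which makes farnesyl diphosphate, was at 141 against 21.8 CPM (2.69), Cyp51 at 84.8 against 31.6, and Sqle at 93.3 against 39.9. Among cells with 10000 to 30000 UMIs Fdps was at 2.29 and Sqle at 0.86. Of 17 hypoxia and glycolysis genes, 8 were higher and 1 lower (median 0.78). The 8 became 4 without G2M-high cells, 5 after thinning to 5000 UMIs and 3 among cells with 10000 to 30000 UMIs. Pgk1 was at 1089 against 392 CPM (1.47), Aldoa at 1598 against 682 and Ldha at 1647 against 768. In the range of 10000 to 30000 UMIs Pgk1 was at 1.06 and Ldha at 0.83. Of the 17 hypoxia and glycolysis genes, 14 lay above the median of all genes and 3 below it. The 3, all hypoxia targets outside glycolysis, were Vegfa (71.6 against 84.5 CPM), Car9 (0.611 against 0.751) and Ndrg1 (59.7 against 221). The log2 ratio of Ndrg1 was -1.89, and -1.14 among cells with 10000 to 30000 UMIs. Of 11 genes of fatty acid synthesis and oxidation, 1 was higher and 2 lower (median 0.08). Spp1, which encodes osteopontin, was at 210 against 55.9 CPM (1.91). Sema3c, a secreted semaphorin, was at 89.6 against 137 (-0.61, and -0.16 among cells with 10000 to 30000 UMIs).

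Cycling cells made up a larger share of the node cells. Among the 1073 members with at least 10000 UMIs, 743 (69.2%, exact interval 66.4 to 72.0%) had at least 500 CPM of Mki67, Top2a, Cdk1, Ccnb1, Birc5 and Ube2c together, against 2412 of 5075 tumour cells (47.5%, 46.1 to 48.9%). After thinning to 10000 UMIs the shares were 69.3% and 48.2%. Among cells with at most 6000 genes, the limit of the study, they were closer, at 47.5% of 514 node cells and 40.1% of 4275 tumour cells. In the node 180 cells lay within 2-fold of the limit, and the lower quartile, median and upper quartile were 260, 1474 and 2943 CPM. The G2M-high cells had a median of 50390 UMIs and the others 35370. Over all cells, genes of S phase and of G2M had median log2 ratios of 0.21 and 0.29 in favour of the node. Among cells with 10000 to 30000 UMIs in both libraries these were -0.46 and -0.46. That window held 157 node cells, of which 60 were in cluster 2 and 46 in cluster 7, clusters described below with few cycling cells. Their part in the negative medians was not tested. With every cell thinned to 5000 UMIs the medians were 0.40 and 0.55, on the side of all cells.

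The interferon, antigen presentation, early response and metabolic lists kept their direction in the window of 10000 to 30000 UMIs, with smaller medians. Depth still differed within it, with a median of 24569 UMIs in the node cells and 17527 in 3631 tumour cells. There the GTPase list had a median of -2.34, other interferon genes -1.42, cholesterol synthesis 0.67 and glycolysis 0.70. Antigen presentation had a median of -0.93, with 7 of 15 genes at least 2-fold lower, and early response genes -0.66, with 7 of 18. Class II genes had a median of -0.65, with 2 of 7 at least 2-fold lower. Of these 157 node cells, 36 were under 100 CPM of Id1, the cells described below. Without them the medians were -2.56 for the GTPases, -2.26 for other interferon genes, -1.13 for antigen presentation, -1.54 for class II and -1.01 for early response genes.

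**Figure D3:**
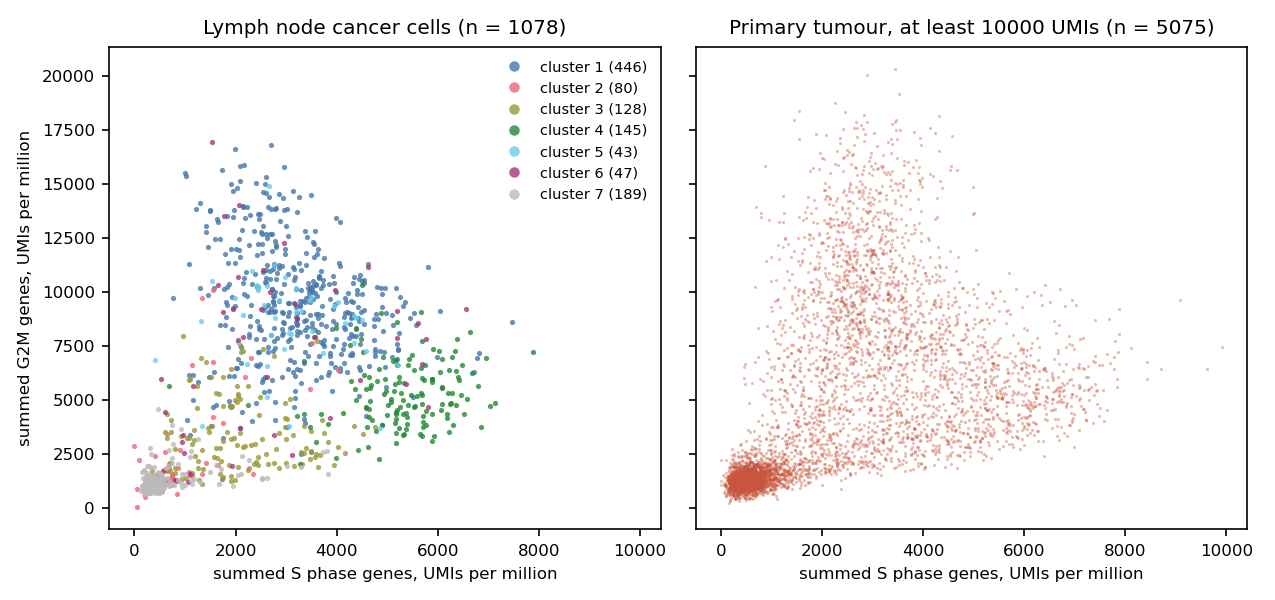
Summed CPM of S phase genes (x) and G2M genes (y) per cell, for lymph node cancer cells coloured by cluster (left) and primary tumour cancer cells with at least 10000 UMIs (right). Clusters 1 and 4 fill the cycling arms, cluster 7 sits at the origin with a median of 384 CPM of S phase genes, and cluster 3 lies between.

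Within the node, the G2M-high cells were set against the other members. Of 9846 genes, 659 (6.69%) were at least 2-fold higher and 76 (0.772%) lower in them, and without the 2 Dcpp-rich cells 655 and 71. The values that follow leave those cells out. Besides the genes of the limit, the mitotic genes Aurkb (96.7 against 1.34 CPM), Kif11, Nusap1, Aurka and Hmmr had the highest ratios. Of the fixed lists, 39 of 43 S phase genes and 45 of 48 G2M genes were at least 2-fold higher. The highest in the other cells were the histone genes H2bc4 (165 against 23.6 CPM), H4c9 and H2ac6, with Fosb and Hmox1. Id1 was at 1415 against 1169 CPM, Tff2 at 1556 against 1376 and Krt19 at 967 against 1357, all under 2-fold. Of 13 cholesterol synthesis genes, 2 were at least 2-fold higher in the G2M-high cells (median 0.69).

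Id1 divided the members unevenly. Of 1073 cells, 1024 (95.4%, interval 94 to 96.6%) had at least 100 CPM of Id1, against 77.3% in the tumour, and 42 node cells lay within 2-fold of the limit. The 49 Id1-low cells had a median of 22987 UMIs and the others 46165. Between them, 1333 of 10135 genes (13.2%) were at least 2-fold higher in the Id1-high cells and 559 (5.52%) in the Id1-low cells. One of the Dcpp-rich cells is Id1-low, and without both cells the counts were 1186 and 636. The values that follow leave them out, so that 48 cells are set against 1023.

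Fosb was at 289 CPM in the Id1-low cells and 16.9 in the Id1-high cells, beside 402 in the tumour. Atf3 was at 731 and 51.8, beside 429. Cd74 was at 1057 and 109, beside 750, and the class II gene H2-Aa at 96.3 and 11.8, beside 68.7. All 5 class II genes tested were at least 2-fold higher in the Id1-low cells, as were 8 of 15 early response genes and 11 of 14 other interferon genes. Gbp2 was at 8.30 and 0.723 CPM, beside 127, under the tumour in both, and 40.0% of the Id1-low Gbp2 UMIs came from 1 cell. Areg, Nr4a1 and Hmox1 were also among the genes highest by ratio. For Areg 38.1%, for Ccl2 55.7% and for Cxcl10 43.8% of the Id1-low UMIs came from 1 cell. Id3 was at 78.0 against 613 CPM, Tff2 at 625 against 1534 and Nrn1 at 41.5 against 97.3. Cycle genes were lower, with Top2a at 102 against 513 CPM, and 38 of 53 G2M genes were at least 2-fold lower. Igkc, as a measure of lymphocyte RNA, was at 51.5 CPM in the Id1-low and 55.3 in the Id1-high cells, and at 33.5 in the latter without the 1 cell that held 39.5% of their UMIs. Its part in these values was not tested.

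**Figure D4:**
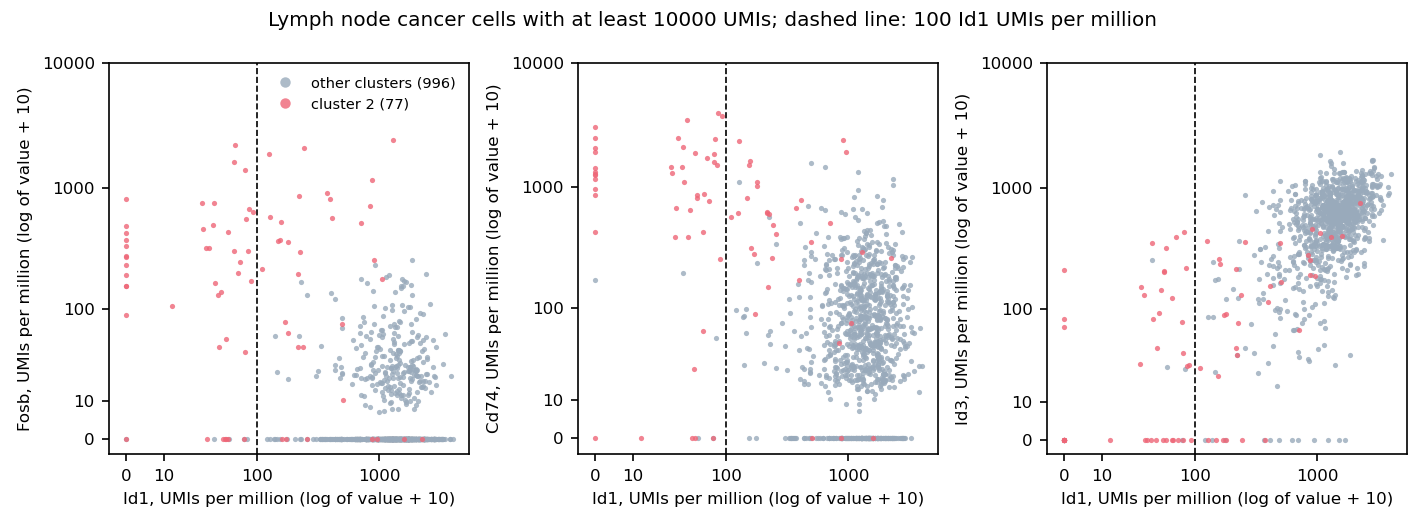
Id1 (x) against Fosb, Cd74 and Id3 (y) in 1073 lymph node cancer cells with at least 10000 UMIs, as CPM on a log scale of the value plus 10, with cluster 2 in red and the dashed line at 100 CPM of Id1. Of the 49 cells left of the line, 44 belong to cluster 2.

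Gbp2 was rare in single members. Of 1073 cells, 1 (0.0932%, interval 0.00236 to 0.518%) reached 100 CPM, with 6 cells within 2-fold of the limit, against 1561 of 5075 tumour cells (30.8%). At 5000 UMIs a UMI of Gbp2 was in 0.593% of members, 27.8% of tumour cells and 9.80% of node lymphocytes, and unthinned in 3.80%, 49.1% and 3.51%. The member share lay below that of the lymphocytes after thinning and near it unthinned, and is not read as expression.

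Tff2 and Tff1 cut the members differently. At least 100 CPM of Tff2 was in 1001 of 1073 cells (93.3%, interval 91.6 to 94.7%) and of Tff1 in 112 (10.4%, 8.67 to 12.4%), against 31.0% and 9.81% of tumour cells. For Tff1 236 cells lay within 2-fold of the limit, and thinning to 10000 UMIs raised its share to 26.0% in the node and 13.8% in the tumour. At 10000 UMIs 1 UMI is 100 CPM. Tff1-high cells had 18 of 10054 genes (0.179%) at least 2-fold higher and 106 (1.05%) lower than the others, and 17 and 97 without the Dcpp-rich cells. Without those cells, Tff2 was at 2434 against 1402 CPM in them and Krt19 at 1359 against 1022. Tff3 was at 22.1 against 1.15, with 90.7% of the former from 1 cell. Among genes at 50 CPM or more other than Tff1, Cysrt1 led, at 72.4 against 33.3. Between Tff2-high and the 72 other cells, 222 of 10112 genes (2.2%) were higher and 86 (0.85%) lower, and without the Dcpp-rich cells 208 and 92. Without them Ppbp was at 148 against 75.2 CPM, Ccl2 at 20.4 against 80.5 (48.6% of the latter from 1 cell) and Clec2g at 76.5 against 229.

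Clusters of cells came from unsupervised clustering of the members, given as a description and left unnamed. The sizes were 446, 80, 128, 145, 43, 47 and 189 cells for clusters 1 to 7. Clusters 1 and 4 were led by mitotic genes (Nusap1, Cenpf, Ube2c) and by genes of S phase entry (Cdc6, Ung, Ccne1). Cluster 7 was led by H2bc4, H4c9 and H2ac6 with 1558 CPM of Krt19, the highest of the 7 clusters. Cluster 3 had no gene above 100 CPM among its 10 leading genes. Cluster 5 was led by Tmsb4x, H2-K1, Cd52 and Ighm, which lymphocytes express, with Cd74 at 311 CPM. Cluster 2 was led by Fosb, Atf3 and Cxcl10. It held 44 of the 49 Id1-low cells and both Dcpp-rich cells, and had a median of 20572 UMIs. Summed Id1 was 230 CPM in cluster 2 and between 1132 and 1458 in the other 6. Tff2 was 534 in cluster 2 and between 1208 and 1673 in the others. Without the Dcpp-rich cells, Id1 was 226 and Tff2 566 in cluster 2.

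Cluster 6 was led by Cldn6, Clec2g and H2-Bl. It had 1132 CPM of Id1 and 871 of Krt19, against 1363 and 1064 in the other members, and a median of 41599 UMIs. Cldn6, an embryonic claudin, was at 39.6 CPM against 0.620 in the other members, Trap1a at 43.4 against 3.41, Mfap5 at 52.4 against 3.85, Runx1 at 62.2 against 6.41 and Clec2g at 533 against 63.3. Tff1 was at 281 against 47.7 in sum, with a median of 43.4 per cell and 33 of the 47 cells under 100 CPM. Lower were Enpp2, which encodes autotaxin (15.3 against 187), Lbp (10.2 against 108), Tnfrsf11b, which encodes osteoprotegerin (5.96 against 114) and Aspscr1 (41.7 against 391). The tumour cells had 2.77 CPM of Cldn6, 121 of Enpp2 and 249 of Aspscr1, nearer to the other node cells, and 112 of Tff1, between the 2 groups. Xlr3b was at 2.13 CPM in cluster 6, 32.4 in the other members and 0.828 in the tumour, where the tumour was nearer to cluster 6.

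The genes of cluster 6 also differed by chromosome. Over genes with at least 2000 UMIs in the other members, the median log2 ratio to them was 0.09. It was 0.50 for 93 genes of chromosome 12, 0.39 for 119 of chromosome 19 and 0.36 for 174 of chromosome 3. It was -0.39 for 92 genes of chromosome X and -0.19 for 239 of chromosome 1. Cluster 5, of similar size, stayed between 0.02 and 0.07 on chromosomes 1, 19 and X beside a median of 0.03. In cluster 2 chromosomes 1, 19 and X were at -0.52, -0.11 and -0.43, beside -0.31, and without the Dcpp-rich cells at -0.42, -0.015 and -0.36, beside -0.21. Between all node and tumour cells the chromosomes lay between -0.24 and -0.07 beside -0.18. DNA was not measured, and the part of copy number in these values was not tested.

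**Figure D5:**
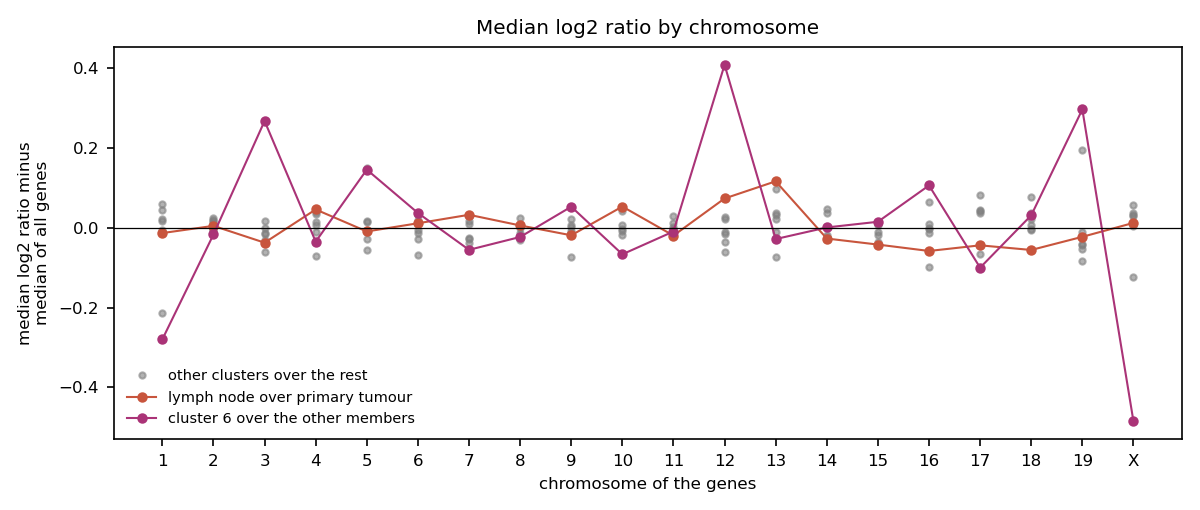
Median log2 ratio of the genes on each chromosome minus the median of all genes, for cluster 6 over the other lymph node cancer cells (purple), all lymph node over primary tumour cancer cells (red) and the other 6 clusters (grey). Cluster 6 departs most on chromosomes 12, 19, 3, 1 and X, where its medians were 0.50, 0.39, 0.36, -0.19 and -0.39 before the overall 0.09 was taken off.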

How the data were processed

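Cells were prepared with the 10x Genomics kit. The deposited matrices hold UMI counts per gene and cell, which the authors made with Cell Ranger on GRCm38. The labels' notes give version 2.1.1 and the file headers 5.0.0. The files list 22620 genes. Members and gene lists were chosen with earlier results of these data known. Doublets were not removed in the main result, and a Scrublet alternative was run. UMIs were summed over cells and scaled to 1000000. Intervals are exact at 95% and cover counting error only, and a 2-fold difference was the limit used. The calculation was tested on simulated data. Named genes were those of the lists, the 12 highest and lowest ratios at 50 CPM or more, and 5 each way per class within the node. For a symbol with several identifiers the one with most UMIs was used. Clusters came from 2000 variable genes, 20 components, 15 neighbours and resolution 0.5. A leading gene was in at least 25% of a cluster's cells. Chromosomes were taken from the GENCODE annotation of the same build. Values for the Dcpp-rich cells, the clusters' named genes, chromosomes and the keratin-negative lymphocyte reference were chosen after seeing the data. Samples were grouped by their titles. Python 3.11.15, numpy 2.4.6, scipy 1.17.1 and scanpy 1.11.5 were used. Values of some list members are not reported here.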

Additional observations from a re-analysis of the deposited data

How the results depend on the processing

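No paired analysis was possible because each tissue has 1 pooled library. With at most 6000 genes per cell, the upper limit of the study, 519 of the 1078 members stayed, with 244 G2M-high, 458 Tff2-high, 466 Id1-high and 53 Tff1-high cells, or 47.5%, 89.1%, 90.7% and 10.3% of 514 cells. Without any UMI of the other gate genes 700 members stayed. Genes at least 2-fold higher in the node numbered 343 with at least 500 UMIs in either class, 1031 with at least 20, and 352 among cells with 10000 to 30000 UMIs, and genes lower 825, 1683 and 822. Shifting by the median of all genes gave 848 higher and 878 lower. Tff1-high cells numbered 285 at 50 CPM, 49 at 200 CPM and 279 after thinning, and Gbp2-high cells 7 at 50 CPM and 11 after thinning. The median of the trefoil and mucin list, of 3 genes of which Tff3 (63.6% of its node UMIs from 1 cell) was the middle one, turned from 2.44 to -0.033 with at most 6000 genes, to -0.70 among cells with 10000 to 30000 UMIs and to -0.61 when these also had 100 CPM of Id1. The cause was not tested. Of 27 list medians 9 changed sign in some alternative, the others being lists of cycle, G1/S, Id and BMP, keratin, cornified, homing and fatty acid genes, while no interferon, antigen presentation, early response, cholesterol or glycolysis list did. All 45 genes followed kept their sign in all 13 alternatives. They included the genes named for the 12 highest and 12 lowest ratios of this comparison, so a kept sign was likely from their choice. Of 40 that were 2-fold apart, 6 fell under 2-fold in some alternative: Atf3, Cd74, B2m, Smad6, Ldha and Sqle, with -0.63, -0.65, -0.80, 0.89, 0.83 and 0.86 among cells with 10000 to 30000 UMIs. The alternatives without cycling, Id1-low or Dcpp-rich cells and those of this depth range were chosen after seeing the data. Scrublet scores above the 94th percentile marked 27 members (2.5%), and without these in both libraries 624 genes were higher and 1127 lower.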
